A study of Mus musculus with 12 samples.

Results

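The Hox genes encode homeodomain transcription factors that stand in 4 clusters, Hoxa, Hoxb, Hoxc and Hoxd, in the same order as their domains along the body axis. Members at the same place in different clusters are paralogs and share a number: the low numbers are used towards the head, the middle numbers along the trunk and the high numbers in the tail, the distal limb and the urogenital tract. Fibroblasts in culture are known to keep the Hox pattern of the place they were taken from, and the active stretch of a cluster is more open to transposase than the silent stretch.

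Chromatin accessibility at 38 protein-coding Hox genes was examined among 21951 protein-coding genes of GENCODE M21. The genes were taken by name, 10 each from Hoxa and Hoxb and 9 each from Hoxc and Hoxd. A gene was counted as having a promoter peak in a library when a listed peak had its summit within 3000 bp of one of the gene's annotated transcript starts, and each cluster was also scored from its first to its last listed gene.

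The assay was ATAC-seq, in which a transposase cuts open chromatin, on primary fibroblasts of the lower abdominal muscle of Aromhum mice, which carry human aromatase and form inguinal hernias. All cultures were serum-starved and carried the same transgene, and no wild-type library was analysed here. The transgene is a bacterial artificial chromosome with the human gene's own promoters. The 4 groups had 3 libraries each: vehicle (ethanol and DMSO), E2 (estradiol) at 10 nM, E2 at 10 nM with the estrogen receptor antagonist fulvestrant at 100 nM, and fulvestrant at 100 nM alone, all harvested 1 hr after E2 or its vehicle was added. Fulvestrant or DMSO was added first, as a pretreatment, and E2 or ethanol followed. Exposure to fulvestrant was therefore longer than 1 hr. The labels do not say whether libraries came from separate mice, so the spread between them may in part be technical.

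The 12 libraries did not stand on the same footing. The peak lists held between 30062 and 110724 peaks, and the share with a q of 0.05 or less ran from 7.35% to 46.4%. Such a peak lay at the promoters of 32.2% to 50.6% of protein-coding genes in the 4 replicate 1 libraries and of 43.3% in vehicle replicate 3, whereas the other 7 libraries reached 1.29% to 13.6%. The replicate 1 libraries also listed 22 to 36 peaks on the Y chromosome and the other 8 listed 854 to 1148. The mice of the study are described as male. The part of these differences in the Hox values was not tested.

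The label of the cells was checked at marker promoters. A promoter peak with a q of 0.05 or less was listed in at least 3 libraries for 7 of 12 fibroblast markers, among them Pdgfra, Pdgfrb, Col1a2 and Twist1, each in 5 libraries. That is 58.3% of these markers, against 45.9% of all protein-coding genes. Of the other fibroblast markers, Col3a1, Twist2 and Prrx1 passed the q in 2 libraries each and Lum in 1, and Tcf21 had no peak in any library. A peak at this q in at least 3 libraries was listed for 1 of 7 skeletal muscle markers (Ckm), 0 of 4 endothelial, 1 of 5 immune (Cx3cr1) and 0 of 4 epithelial markers. With every listed peak counted, the muscle markers Pax7 and Myod1 had none in any library. Myf5 and Myh3 had one in 1 library each, Myog in 4, Des in 6 and Ckm in 8, against 7 for Pdgfra.

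Sequences of 4 stretches are shown because they lie at recurrent summits of Hoxa, Hoxb and Hoxc on which values below rest. They were read from the plus strand of GRCm38 (mm10) within 100 bp of the median summit, annotated UTRs left out. The Hoxa7 stretch therefore holds only sequence upstream of the start and not the median summit itself, at chr6:52221821. They were searched on both strands for 5 motifs. These were the PBX-HOX site TGATTNAT, the MEIS site TGACAG, the homeodomain site TAATTA, the AP-1-like site TGANTCA and the TATA motif TATAAA. The middle letter of TGANTCA was left free, and the shorter TAAT alone was not searched for. None of the 4 stretches held any of the 5 motifs, so all letters are in lower case. Some recurrent stretches that are not shown did hold a match. Examples are the Hoxc10 start with TAATTA and TGANTCA (as TGAATCA) and the region 10990 bp upstream of Hoxb9 with TGANTCA (as TGACTCA). Another is the Hoxd3 intron region with TATAAA.

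Hoxa7 start, chr6:52221855-52221921: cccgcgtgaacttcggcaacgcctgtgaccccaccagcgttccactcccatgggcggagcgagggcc
Hoxa10, chr6:52233533-52233733: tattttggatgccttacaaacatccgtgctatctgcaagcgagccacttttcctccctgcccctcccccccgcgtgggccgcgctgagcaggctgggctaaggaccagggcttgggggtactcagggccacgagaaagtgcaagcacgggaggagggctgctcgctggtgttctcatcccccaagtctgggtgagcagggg
Between Hoxb8 and Hoxb7, chr11:96285317-96285517: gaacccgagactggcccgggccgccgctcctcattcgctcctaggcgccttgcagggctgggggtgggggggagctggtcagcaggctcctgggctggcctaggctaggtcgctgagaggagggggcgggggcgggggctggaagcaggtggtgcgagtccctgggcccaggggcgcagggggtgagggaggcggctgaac
Hoxc6, chr15:102999242-102999442: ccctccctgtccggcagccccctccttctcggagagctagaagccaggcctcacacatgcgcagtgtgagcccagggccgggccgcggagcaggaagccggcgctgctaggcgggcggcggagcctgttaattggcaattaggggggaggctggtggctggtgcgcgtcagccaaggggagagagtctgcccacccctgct

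With the window of 3000 bp, promoter peaks were listed for paralog groups 3 to 10 in 42% of gene and library pairs, near the 39.7% of all protein-coding genes. For the groups at the 2 ends of the clusters the shares were 8.33% and 12%. A peak with a q of 0.05 or less was listed in at least 3 of 12 libraries for 11 of 38 Hox genes, namely Hoxa3, Hoxa7, Hoxa9, Hoxa10, Hoxb2, Hoxb7, Hoxb8, Hoxb9, Hoxc5, Hoxc6 and Hoxc10, and for no Hoxd gene. The 11 genes are 28.9% of the Hox genes, against 45.9% of all protein-coding genes, a smaller share than over all promoters. No such peak in any library was listed for 15 Hox genes, or 39.5%, against 35.1% of all genes.

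The count of 11 genes rested on the replicate 1 libraries. It was 10 or 11 when any single library was left out, 11 without the replicate 2 libraries, 10 without the replicate 3 libraries and 0 without the replicate 1 libraries. Of 65 gene and library pairs with a peak at this q, 62 lay in the 4 replicate 1 libraries and vehicle replicate 3. The remaining 3 were Hoxa11 and Hoxd3 in vehicle replicate 2 and Hoxd13 in E2 replicate 3.

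With every listed peak counted, 143 of 456 gene and library pairs had one. A promoter peak stood in at least 6 of 12 libraries for 12 Hox genes (31.6%), against 45.2% of all protein-coding genes, and in at least 9 libraries for 2 (5.26%), against 11.9%. No peak in any library was listed for Hoxa2, Hoxa13 and Hoxd1 (7.89%), against 11.8% of all genes. The count of 12 fell to 6 without vehicle replicate 3 or E2 replicate 1 and to 7 without any one of the other 3 replicate 1 libraries, with the threshold of 6 libraries kept.

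**Figure D1:**
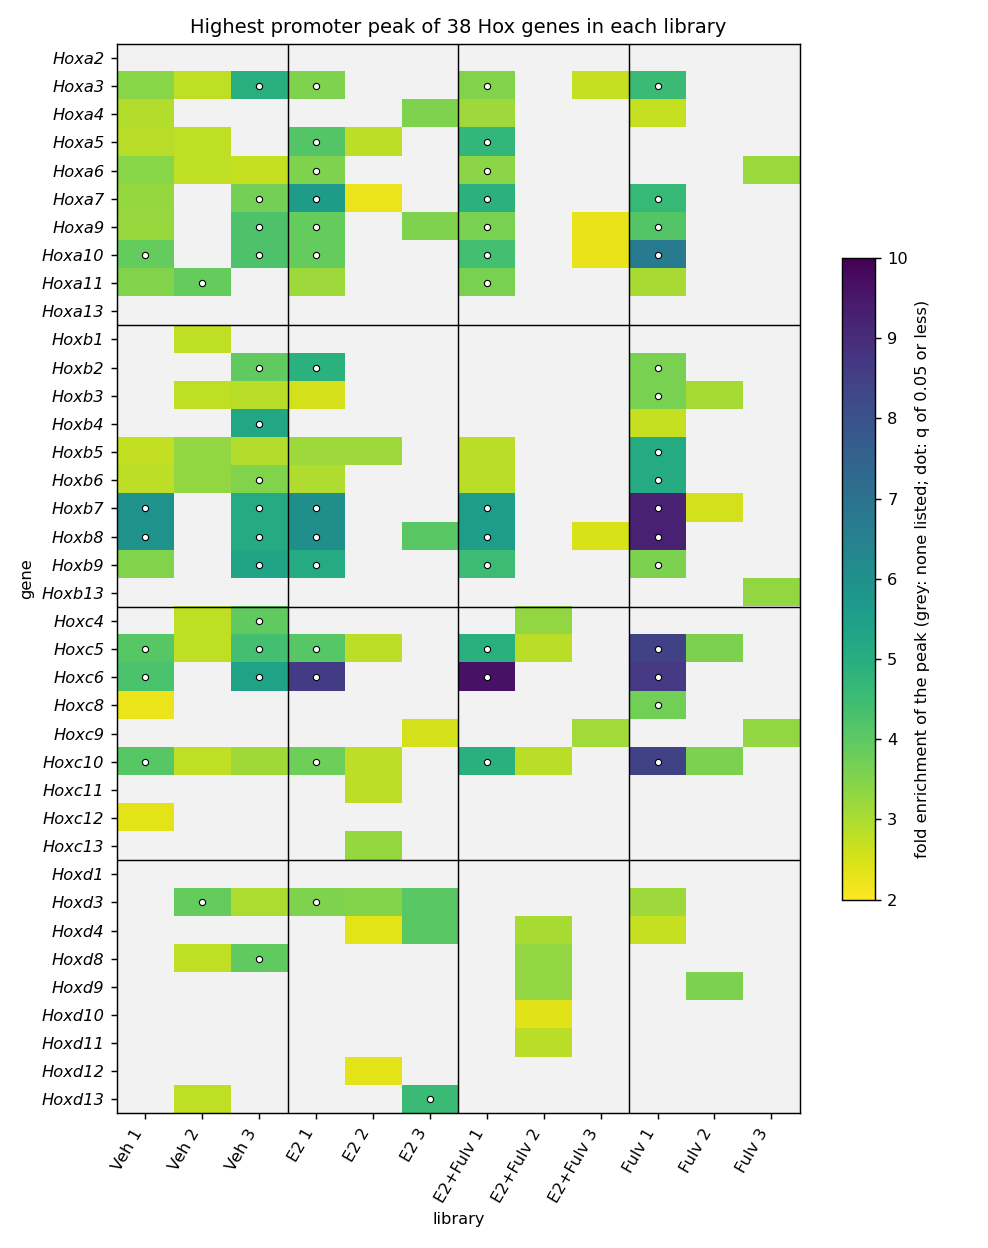
Fold enrichment of the highest promoter peak of each of 38 Hox genes (rows, in paralog order within the 4 clusters) in each of 12 libraries (columns; Veh, vehicle; Fulv, fulvestrant). Grey cells have no listed peak and dots mark a q of 0.05 or less; 62 of the 65 dots lie in the 4 replicate 1 columns and in vehicle replicate 3.

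By paralog number, groups 3 to 10 held most of the calls. Their 25 genes had a promoter peak in 126 of 300 gene and library pairs (42.0%), and 59 pairs (19.7%) passed the q of 0.05. Over all protein-coding genes 39.7% of pairs had a peak and 21.3% passed. With the window of 3000 bp groups 3 to 10 thus stood near the share of all genes and the end groups below it. The 4 genes of groups 1 and 2 had a peak in 4 of 48 pairs (8.33%) and the 9 genes of groups 11 to 13 in 13 of 108 (12%). In the replicate 1 libraries and vehicle replicate 3 the shares with a peak were 66.4% for groups 3 to 10, 11.1% for groups 11 to 13 and 59.4% for all genes, and in the other 7 libraries they were 24.6%, 12.7% and 25.5%. These shares were taken with the window of 3000 bp only. Of the 143 Hox pairs with a peak, 82 had their highest peak within 1000 bp of a start. With 1000 bp Hoxa6 and Hoxb7 fell from 6 libraries to 1 each, while Hoxa7, Hoxc10 and Hoxa11 kept 6, 9 and 5. Only 3 of the 108 pairs of groups 11 to 13 passed the q, 2 of them at Hoxa11. Paralogs of 1 number did not run alike, since within group 10 the gene Hoxa10 passed the q in 5 libraries and Hoxc10 in 4, whereas Hoxd10 passed in none.

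Within groups 3 to 10 the 5 Hoxd genes had a peak in 16 of 60 pairs (26.7%) and passed the q in 3. The share of pairs with a peak was 48.8% for 7 Hoxa genes, 45.2% for 7 Hoxb genes and 43.1% for 6 Hoxc genes. Hoxd has no member in groups 5 to 7, and in the groups it shares its genes were not always lower, as Hoxd3 was listed in 6 libraries and Hoxb3 in 5, and Hoxd4 in 4 and Hoxb4 in 2. Neighbouring members share peaks, because a window of 3000 bp often reaches the next gene, so these pairs are not independent and no test was applied to them.

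Hoxc10 and Hoxc5 were the genes listed in most libraries, 9 each. Hoxc10 (ENSMUSG00000022484.7, chr15:102966796-102971893, plus strand), a factor of the lumbar trunk and hindlimb, has 1 annotated start. Its highest promoter peak reached a fold enrichment over local background of 4.09, 2.78 and 3.15 in vehicle replicates 1, 2 and 3, of 3.76 and 2.80 in E2 replicates 1 and 2, of 4.92 and 2.84 in E2 plus fulvestrant replicates 1 and 2, and of 8.45 and 3.59 in fulvestrant replicates 1 and 2. None was listed in replicate 3 of the 3 treated groups. Fulvestrant replicate 1 was the highest, and the 4 groups overlapped.

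The peaks behind those folds were small. The pile-up of fragments recovered from fold and p-value was 24 tags at Hoxc10 in fulvestrant replicate 1, 12 in E2 plus fulvestrant replicate 1 and 4 to 9 in the other 7 libraries. Over all 143 pairs the median was 7 tags, the lowest 3 and the highest 30, and the most common background was 0.713 to 1.42 tags. At the most common background, 1 tag more or less moved a fold by 0.413 to 0.584, and by less where the local background was higher. At that background the fewest tags a list admitted give a fold of 2.22 to 2.56, and a peak over a higher local background holds more tags at the same fold.

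Hoxc5, a trunk gene, was called through the same stretch in 6 of its 9 libraries, because 1 of its 2 annotated starts is chr15:102967443, just inside Hoxc10. In vehicle replicate 3 and E2 replicate 1 its highest peak lay instead 596 and 553 bp past its other start, with folds of 4.40 and 4.07. With each peak counted for the nearest member alone, Hoxc10 kept 8 libraries and Hoxc5 kept 7.

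Hoxc6, a thoracic gene, had the highest single fold of the family. The region chr15:102998636-102999694, in introns of Hoxc6 and of the long Hoxc5 transcript, had its median summit 1085 bp past a Hoxc6 start. Its fold was 4.26 in vehicle replicate 1, 5.40 in vehicle replicate 3, 8.58 in E2 replicate 1, 9.6 in E2 plus fulvestrant replicate 1 and 8.66 in fulvestrant replicate 1, with 7, 14, 28, 28 and 30 tags. The remaining 7 libraries listed no peak there. Within the library, the Hoxc6 fold lay at percentile 57.7, 46.8, 81.0, 83.4 and 77.2 of all protein-coding promoters with a peak. In the first and last of these libraries the fold of Hoxb7, 5.91 and 9.26, was higher still, at percentile 78.1 and 80.5.

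The region chr15:103014164-103014931, in the coding sequence of Hoxc5, was listed in 6 libraries. It had folds of 4.40 in vehicle replicate 3, 4.07 in E2 replicate 1, 3.38 and 2.34 in E2 plus fulvestrant replicates 1 and 2, and 3.73 and 3.59 in fulvestrant replicates 1 and 2. Its far end lies inside Mir615, the gene of a microRNA within Hoxc5.

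The strongest Hoxb region lay between Hoxb8 and Hoxb7, trunk genes both. The region chr11:96285205-96285697, with its median summit 1206 bp upstream of Hoxb7 and just past the end of Hoxb8, had folds of 5.91 in vehicle replicate 1, 5.08 in vehicle replicate 3, 6 in E2 replicate 1, 5.56 in E2 plus fulvestrant replicate 1 and 9.26 in fulvestrant replicate 1. All 5 passed the q of 0.05. It gave both Hoxb7 and Hoxb8 their calls in those libraries, and with the nearest member alone counted Hoxb8 kept 3 of its 7 libraries while Hoxb7 kept 6. With a window of 1000 bp Hoxb7 kept 1 and Hoxb8 kept 2.

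A further Hoxb region was on the Hoxb9 side of the cluster. The intergenic region chr11:96259825-96260685, 10990 bp upstream of Hoxb9, had folds of 2.92 and 6.93 in vehicle replicates 1 and 3, 3.99 in E2 replicate 1, 5.70 in E2 plus fulvestrant replicate 1 and 3.12 in fulvestrant replicate 1. At the front of the cluster Hoxb2, a hindbrain gene, passed the q in vehicle replicate 3, E2 replicate 1 and fulvestrant replicate 1 with folds of 3.97, 4.88 and 3.61. These highest peaks lay in 3 regions, and E2 replicate 1 also listed the region of the vehicle peak, at 3.55.

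In Hoxa 6 regions were listed in 5 libraries each, of which the 3 with the highest median fold lay at Hoxa7 and Hoxa10, genes of the thoracic and lumbar trunk. The other 3 lay at Hoxa3 and Hoxa9. The region chr6:52221374-52222376 over the Hoxa7 start, with its median summit in an exon annotated as UTR, had folds of 3.25 and 3.68 in vehicle replicates 1 and 3, 5.58 in E2 replicate 1, 4.85 in E2 plus fulvestrant replicate 1 and 4.50 in fulvestrant replicate 1. At the far Hoxa10 start the region chr6:52240240-52240922 had 3.89 and 3.37, 3.69, 4.38 and 6.69 in the same libraries. The region chr6:52233376-52234052, inside the longer Hoxa10 transcripts and 309 bp upstream of the nearer start, had 4.25 in vehicle replicate 3, 3.89 in E2 replicate 1, 2.99 and 2.25 in E2 plus fulvestrant replicates 1 and 3, and 4.15 in fulvestrant replicate 1.

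Hoxa3, a neck gene whose 4 annotated starts spread from chr6:52183855 to chr6:52213336, was listed in 7 libraries with a median fold of 3.50 and passed the q in 4. In 6 of the 7 the peak lay at its most upstream starts, beside Hoxa6. Hoxa6 itself was listed in 6 libraries, but in 1 when each peak went to the nearest member alone.

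In Hoxd no region was listed in more than 4 libraries. The region chr2:74740300-74740942, in an intron of Hoxd3, had folds of 2.22 and 2.97 in vehicle replicates 2 and 3, 3.55 in E2 replicate 1 and 2.71 in fulvestrant replicate 1, and only E2 replicate 1 passed the q. Upstream of it, chr2:74735284-74735775 had 2.80 and 3.54 in E2 replicates 2 and 3 and 3.16 in fulvestrant replicate 1. The third, chr2:74715768-74716191, had 3.64 in vehicle replicate 3 and 3.24 in E2 plus fulvestrant replicate 1.

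The posterior genes, which pattern the distal limb and the genital tract, were close to empty. Hoxa13 had no promoter peak. Hoxb13 had 1, in fulvestrant replicate 3 (fold 3.31, 7 tags), Hoxc13 had 1, in E2 replicate 2 (3.27, 6 tags), and Hoxd13 had 2, in vehicle replicate 2 (2.78, 4 tags) and E2 replicate 3 (4.55, 8 tags). Each of these was in a library of replicate 2 or 3, and no posterior gene of group 13 was listed in a replicate 1 library.

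Single calls made up the rest of this set. Hoxc11 was listed in E2 replicate 2 (fold 2.80), Hoxc12 in vehicle replicate 1 (2.34), Hoxd10 and Hoxd11 in E2 plus fulvestrant replicate 2 (2.37 and 2.84) and Hoxd12 in E2 replicate 2 (2.33). At the anterior end Hoxb1 was listed in vehicle replicate 2 (2.78). None of these 6 passed the q, and each held 3 to 5 tags. A missing peak at this depth does not show closed chromatin.

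Among the remaining trunk genes the calls were of middling number. Hoxa9 and Hoxb5 were listed in 7 libraries each, Hoxb6 in 6, Hoxa5 and Hoxb3 in 5, Hoxa4 and Hoxd4 in 4, Hoxc4, Hoxc9 and Hoxd8 in 3, and Hoxb4, Hoxc8 and Hoxd9 in 2. Hoxa9 passed the q in 4 of its libraries and Hoxb5 in 1 of its 7.

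Hoxa11 was the exception among groups 11 to 13. It was listed in 5 libraries, with folds of 3.50 and 3.88 in vehicle replicates 1 and 2, 3.17 in E2 replicate 1, 3.60 in E2 plus fulvestrant replicate 1 and 3.05 in fulvestrant replicate 1. In 4 of the 5 the summit was within 115 bp of the Hoxa11 start.

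**Figure D2:**
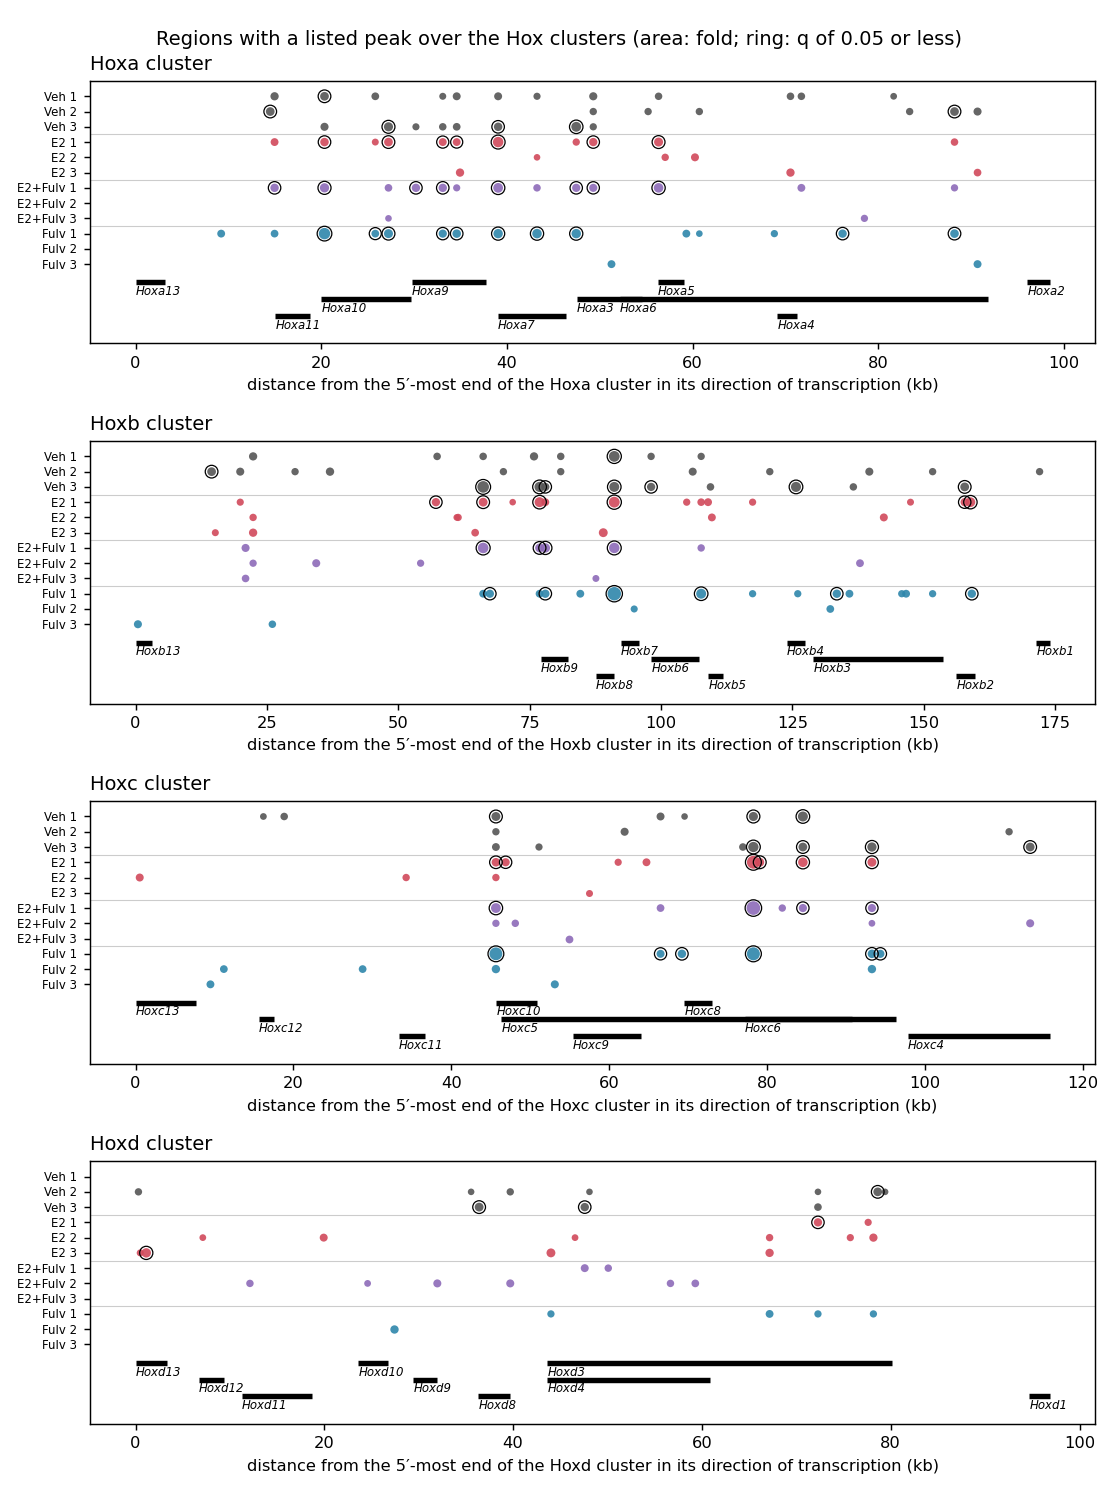
Merged regions with a listed peak (points, placed at the median summit) along each Hox cluster, by library (rows); the x axis is the distance in kb from the end where the highest paralog number lies, the point area is the fold enrichment and a ring marks a q of 0.05 or less. Black bars are the listed genes; 10 Hoxa regions, 6 Hoxb, 4 Hoxc and 1 Hoxd region were listed in at least 4 libraries.

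Over the whole clusters, peaks of the 12 libraries merged into 140 regions, of which 98 were seen in 1 library. Regions listed in at least 4 libraries made up 15% of the Hox regions (21 of 140), against 6.53% of 434675 merged regions of the genome. Regions with a q of 0.05 or less in at least 3 libraries made up 9.29% (13 of 140), against 4.13%. Of the 21 regions, 14 to 19 were listed in each replicate 1 library and in vehicle replicate 3, and 0 to 4 in each of the other 7 libraries. Peaks were 0.841 to 3.43 times as dense over the clusters as over the genome, with a median of 2.05, and the clusters are denser in genes than the genome at large.

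The 21 recurrent Hox regions were richer in CpG than other recurrent regions. Within 201 bp around the median summit, the median ratio of observed to expected CpG was 0.736 in the Hox regions and 0.344 in all 28384 regions listed in at least 4 libraries, and the median GC content was 60.2% and 54.7%. The homeodomain site TAATTA was found in 2 of 21 Hox windows (9.52%) and in 1.25% of all windows. The PBX-HOX site was found in 1 of 21 (4.76%) against 1.79% and the MEIS site in 2 (9.52%) against 12.4%. The AP-1-like TGANTCA was found in 2 (9.52%) against 7.06% and TATAAA in 3 (14.3%) against 4.15%. The palindromic estrogen response element was found in 0 of 21 Hox windows and in 4 of all 28384. A match is a match of letters only.

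By library, 18, 14 and 19 Hox genes had a promoter peak in vehicle replicates 1, 2 and 3. The counts were 18, 10 and 7 with E2, 16, 8 and 5 with E2 plus fulvestrant, and 20, 5 and 3 with fulvestrant. In each of the 3 treated groups replicate 1 was the highest, and the 4 groups overlapped. At a q of 0.05 the counts were 6, 2 and 14 with vehicle, 14, 0 and 1 with E2, 13, 0 and 0 with E2 plus fulvestrant, and 15, 0 and 0 with fulvestrant.

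These counts ran beside the share of all promoters. In the replicate 1 libraries and vehicle replicate 3, 53.8% to 62.8% of all protein-coding genes had a promoter peak and 42.1% to 52.6% of Hox genes did. In fulvestrant replicate 3, with the shortest list, the shares were 19.6% and 7.89%. At any q the Hox share was above that of all genes in E2 replicates 2 and 3 and E2 plus fulvestrant replicate 2 and below it in the other 9 libraries.

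**Figure D3:**
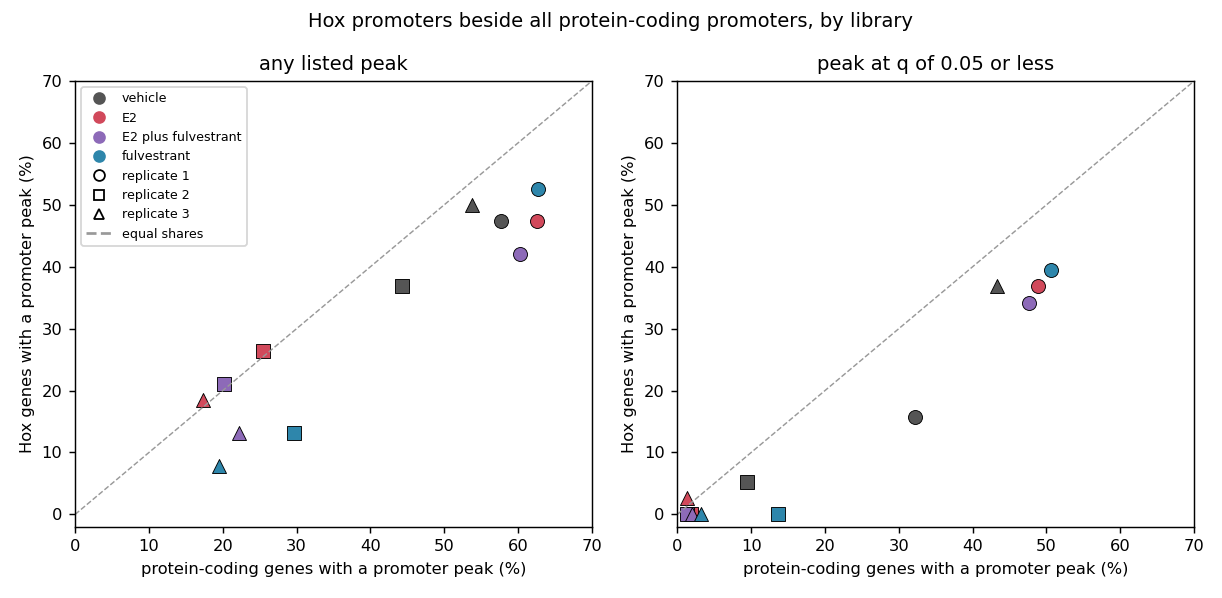
Percentage of 38 Hox genes with a promoter peak (y axis) against the percentage of all protein-coding genes (x axis), for any listed peak (left) and for peaks with a q of 0.05 or less (right); each point is 1 library, coloured by treatment and shaped by replicate number. On the right the 4 replicate 1 libraries and vehicle replicate 3 lie between 32.2% and 50.6% on the x axis and below the dashed line of equal shares.

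The study's main contrast set E2 against E2 plus fulvestrant. The mean number of Hox genes with a promoter peak came to 11.7 ± 5.69 (SD) in the 3 E2 libraries and to 9.67 ± 5.69 (SD) in the 3 that also had fulvestrant, a difference of 2.0 that was smaller than the SD of each group. It was 2.0 in each of the 3 replicate numbers (18 against 16, 10 against 8 and 7 against 5). At a q of 0.05 the difference was 0.667 genes and with a window of 1000 bp it was 3.67. Of all protein-coding genes, 62.6% with E2 and 60.3% with E2 plus fulvestrant had a promoter peak in replicate number 1. The shares were 25.5% against 20.2% in number 2 and, in the other direction, 17.3% against 22.3% in number 3.

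Against vehicle, with 17.0 ± 2.65 Hox genes (SD, n = 3), the mean was 5.33 genes lower with E2, 7.67 lower with fulvestrant (mean 9.33 ± 9.29) and 7.33 lower with E2 plus fulvestrant. These differences were larger than the pooled SD of 4.43, 6.83 and 4.43, but they did not hold within replicate number 1, where E2 equalled vehicle, fulvestrant was 2.0 higher and E2 plus fulvestrant 2.0 lower. Within numbers 2 and 3 they were -8, -12.5 and -10. At a q of 0.05 they were -2.33, -2.33 and -3, below the pooled SD of 7.01, 7.49 and 6.84, and with a window of 1000 bp E2 minus vehicle was -0.333 (SD 4.55). The 3 comparisons share the same vehicle libraries. Over all protein-coding genes the share with a promoter peak was also lower than with vehicle (51.9% ± 6.85, SD, n = 3), at 35.1% ± 24.1 with E2, 37.3% ± 22.6 with fulvestrant and 34.2% ± 22.6 with both, and vehicle replicates 2 and 3 had 44.3% and 53.8% against 17.3% to 29.6% in the 6 treated libraries of the same numbers. No test was applied to these counts.

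Peaks over each cluster were compared between E2 and E2 plus fulvestrant with 4 two-sided exact permutation tests, whose smallest possible p with 3 libraries against 3 is 0.1. Over Hoxa (chr6:52162417-52260880) the E2 libraries listed 11, 3 and 3 peaks and the E2 plus fulvestrant libraries 13, 0 and 2 in replicate order. The means of 5.67 and 5.0 differed by 0.667 (exact permutation p = 0.8).

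Over Hoxb (chr11:96194316-96368256) the lists held 14, 5 and 4 peaks with E2 and 6, 4 and 2 with E2 plus fulvestrant. The difference was 3.67 peaks (exact permutation p = 0.5), and E2 was higher in each of the 3 replicate numbers. Most of it came from replicate number 1, with a difference of 8, against 1.5 within numbers 2 and 3. These counts did not allow for list length, and the E2 lists were longer in numbers 1 and 2 and shorter in number 3. Scaled per 10000 listed peaks, the Hoxb difference was 0.461, and E2 was then lower in number 2. At a q of 0.05 it was 0.667 peaks, and only the replicate 1 libraries of these groups listed any.

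Over Hoxc (chr15:102921103-103036852) the counts were 9, 3 and 1 with E2 and 7, 4 and 1 with E2 plus fulvestrant, a difference of 0.333 (exact permutation p = 1). Over Hoxd (chr2:74668310-74765142) they were 2, 6 and 4 against 2, 6 and 0, a difference of 1.33 (exact permutation p = 0.8). In no cluster did the 2 groups separate.

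In the other groups vehicle listed 12, 7 and 8 peaks over Hoxa and fulvestrant 15, 0 and 2. Over Hoxb these were 8, 11 and 9 against 16, 2 and 2, over Hoxc 7, 3 and 7 against 7, 4 and 2, and over Hoxd 0, 7 and 3 against 4, 1 and 0. Replicate 1 was the highest library in Hoxa in each of the 4 groups, and in Hoxd it was not the highest with vehicle, E2 or E2 plus fulvestrant.

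**Figure D4:**
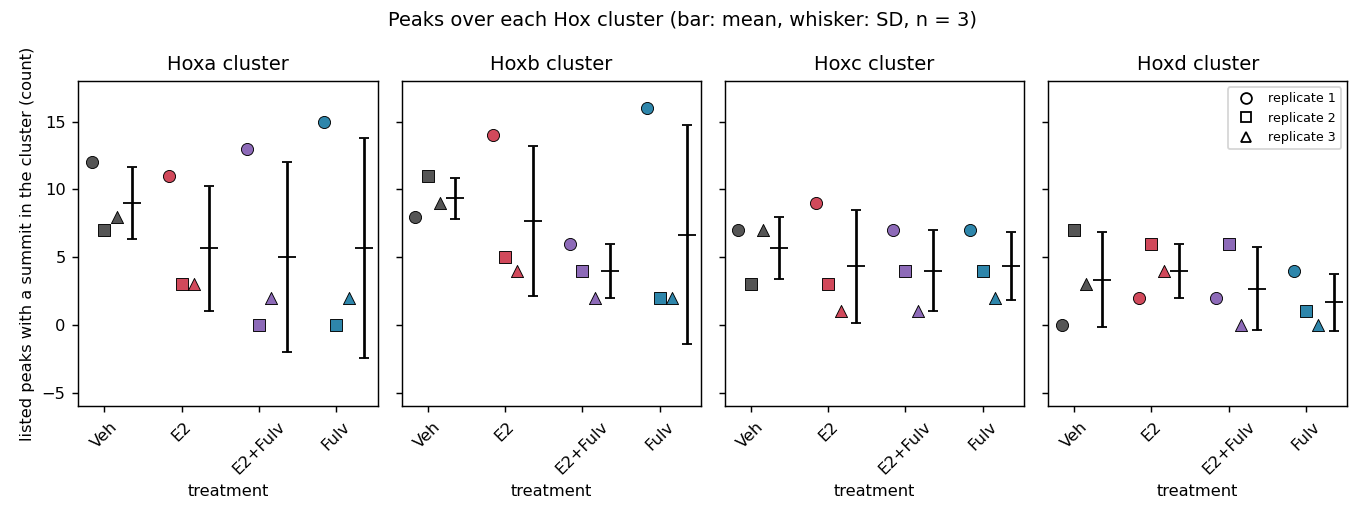
Number of listed peaks with a summit inside each Hox cluster (y axis) by treatment (x axis); each point is 1 library, shaped by replicate number, and the bar and whisker give the mean and SD of 3 libraries. The groups overlap in all 4 clusters, with the replicate 1 libraries highest over Hoxa at 11 to 15 peaks.

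Gene by gene, only Hoxd3 had a promoter peak in all 3 libraries of one group and none of the other in any of the 4 contrasts. Each of the 3 E2 libraries listed it and none of the 3 with fulvestrant added did (1 of 38, 2.63%, against 0.26% of all genes), with folds of 3.55, 3.48 and 4.04. Vehicle replicates 2 and 3 had 3.89 and 2.97 and fulvestrant replicate 1 had 3.16. The highest peaks of the 3 E2 libraries lay in 3 different regions, 1089, 717 and 469 bp past 3 of its 6 annotated starts, and 1 of the 3 passed the q of 0.05. Hoxd3 is a gene of the neck vertebrae, and its starts span chr2:74711927-74745722.

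The same pattern in the opposite direction was seen at no Hox gene, against 0.228% of all genes. For E2 against vehicle it was seen at 0 Hox genes in either direction, against 0.15% of all genes higher with E2 and 0.574% higher with vehicle. For fulvestrant against vehicle the count was 0, against 0.0592% and 0.579%, and for E2 plus fulvestrant against vehicle 0, against 0.15% and 0.679%. With 38 genes, shares of this size amount to less than 1 gene.

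Among the merged regions none separated the E2 libraries from the E2 plus fulvestrant libraries in this way in either direction, against 0.0709% and 0.0216% of regions in the genome. The region chr6:52211101-52211809, 1541 bp past a Hoxa3 start, was listed in all 3 vehicle libraries with folds of 3.41, 2.78 and 2.71 and in no fulvestrant library, against 0.0635% of regions. No vehicle peak there passed the q of 0.05, and E2 replicate 1 and E2 plus fulvestrant replicate 1 listed it at 3.55 and 3.38. This region was named after its values were seen.

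The Hox clusters also encode microRNAs that target Hox mRNAs. Of 6 hairpins, Mir615 had a peak within 3000 bp of its start in 6 libraries and Mir196b in 5, passing the q in 4 and 3. Mir196a-2 was listed in 3 libraries, Mir10a and Mir196a-1 in 2 and Mir10b in 1. The 2 families are shown by their 5p strands with the seed (bases 2 to 8) in capitals, from RefSeq for GRCm38.p6, to show that the hairpins of different clusters share a seed.

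mmu-miR-196a-5p (Hoxb and Hoxc): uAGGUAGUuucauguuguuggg
mmu-miR-196b-5p (Hoxa): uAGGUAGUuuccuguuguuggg
mmu-miR-10a-5p (Hoxb): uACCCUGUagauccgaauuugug
mmu-miR-10b-5p (Hoxd): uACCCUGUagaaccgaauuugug

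Long noncoding RNAs of the clusters gave similar values. Hoxd3os1 had a peak near a start in 6 of 12 libraries, Hoxa11os and Hoxaas3 in 5, Hoxb3os in 4, Hoxaas2 and Hoxb5os in 3, and Haglr and Hotair, the antisense RNA of the posterior Hoxc cluster, in 1. Hottip, beside Hoxa13, had none. These RNAs start close to Hox genes, and their peaks are in part the same.

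Other genes of positional identity were taken from a fixed list. Of 16 limb and body wall factors, 3 passed the q of 0.05 in at least 3 libraries, namely Tbx3, Tbx18 and Pitx1 (18.8%, against 45.9% of all genes). Tbx3, a T-box factor of the limb and flank, had a peak in 10 libraries with a median fold of 7.74 and its highest fold of 12.8 was above that of any Hox gene. Tbx4, the hindlimb factor, had a peak in 8 with a median of 3.19. Hand2 had none.

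Of 7 Hox neighbours and upstream factors none passed the q in at least 3 libraries, and the caudal factor Cdx4 had no peak in any library.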

How the data were processed

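ATAC-seq peak lists of 12 libraries were used. According to the study's methods the reads were trimmed, aligned to mm10 with Bowtie2, freed of duplicates and mitochondrial reads, and peaks were called with MACS2, per library as the files show. The deposited columns are a display score, a fold enrichment (ratio) of the summit over local background, and the −log10 p-value and −log10 q-value that the authors' caller gave. Their lists admit p up to 0.01, and no read counts were given.

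Summits were matched to GENCODE M21 starts with Python 3.11.15, numpy 2.4.6, pandas 2.3.3 and scipy 1.17.1. Peaks that overlap by 1 base were merged into regions. Tags were recovered from fold and p on the caller's formula, solved for at least 99.9968% of peaks per library. Counts have no interval because depth is unknown. Cluster counts were compared with exact permutation tests, and the window search, the test and the recovery were tested on simulated data. Named were genes listed in at least 9 or in at most 1 library, genes separating 2 groups, and up to 3 of the most shared regions per cluster. Of 2 lists of other positional genes, those in at least 9 or in 0 libraries were named. Other genes given with values, such as Hoxa3, Hoxa11, Hoxb2 and Tbx4, were chosen after their values were seen. The genes and lists were chosen with earlier results of these data known. One further Hox gene, some positional genes and some regions are not reported here. RefSeq promoters matched 22 of 38 genes and were not used. Libraries of E2 and E2 plus fulvestrant with the same number deviated together across promoters (r = 0.712, 0.353 and 0.337). Replicates 2 and 3 did so across numbers too. E2 replicate 3 with E2 plus fulvestrant replicate 2 gave 0.392, and E2 replicate 2 with E2 plus fulvestrant replicate 3 gave 0.316. Pairs of replicate 1 with replicate 2 or 3 gave -0.535 to -0.469. Among the E2 and E2 plus fulvestrant libraries the values thus set replicate 1 apart and do not show pairing by number in replicates 2 and 3. With vehicle, same-numbered libraries had a positive r for numbers 1 and 2 and a negative r for number 3 (lowest r -0.494). Vehicle replicate 3 gave 0.562, 0.579 and 0.520 with replicate 1 of E2, E2 plus fulvestrant and fulvestrant. The part of list length in these r values was not tested. The block by number is an alternative that the design does not state.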

Additional observations from a re-analysis of the deposited data

How the results depend on the processing

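Alternatives were the q limit, a window of 1000 bp, nearest member only, scaling per 10000 peaks, base pairs covered, each library left out, the replicate block and values within replicate numbers. For Hox genes with a promoter peak, E2 minus vehicle went from -5.33 to -0.333 with the window of 1000 bp and to 0 within replicate number 1. Fulvestrant minus vehicle went from -7.67 to 2 within number 1, and E2 plus fulvestrant minus vehicle from -7.33 to -2. For E2 minus E2 plus fulvestrant, the Hoxa peak difference of 0.667 reversed to -0.333 at the q limit, -134 base pairs covered and -2 within number 1. The Hoxc difference of 0.333 reversed to -0.158 per 10000 peaks and to -0.5 within numbers 2 and 3, and the Hoxd difference of 1.33 was 0 within number 1. Causes were not tested.

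With a library left out, differences ran from -1.17 to 5.17 genes for E2 minus E2 plus fulvestrant, -8.5 to -3 for E2 minus vehicle, -13 to -4.5 for fulvestrant minus vehicle and -10.5 to -5 for E2 plus fulvestrant minus vehicle. Peak differences ran from -2 to 4.67 over Hoxa, 0.5 to 5.5 over Hoxb, -2 to 2 over Hoxc and 0 to 3 over Hoxd. Chosen after seeing the data, the count of genes listed in at least 6 libraries ran from 6 to 12 (12 with all) and was 0, 4 and 3 without replicate numbers 1, 2 and 3. The count at the q limit in at least 3 libraries ran from 10 to 11 (11 with all) and was 0 without number 1.

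With the replicate number as a block the differences kept their means, such as 3.67 peaks over Hoxb (paired exact sign-flip p = 0.25, the smallest possible) and 2.0 Hox genes, with a difference of 2.0 in each of the 3 pairs. With 3 pairs this p cannot fall below 0.25, so the block could not have changed a call. Its p over Hoxa, Hoxc and Hoxd was 0.75, 1 and 1. A listed peak held as few as 3 tags, which limits every absence above.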
